A study of Mus musculus with 12 samples.

Results

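The 9 genes of the interleukin-1 system were examined here in mouse neutrophils: the agonists Il1a and Il1b, the receptor antagonist Il1rn, the signalling receptor Il1r1, its co-receptor Il1rap, the decoy receptor Il1r2, and the inflammasome genes Nlrp3, Casp1 and Casp4. They were chosen by symbol from the 23621 rows of the count table. All 9 had a row and at least 1 read, and 7 passed the filter on low counts, as did 10604 genes in all. Il1a and Il1r1 were below it. The 12 libraries came from female Balb/c mice aged 8 weeks. The Naive group held 4 libraries of bone marrow neutrophils labelled naive, with no tumour named. Mice bearing liver metastases gave blood neutrophils of high density (HDN, 4 libraries) and low density (LDN, 4 libraries), names for the fractions that sink through a density gradient or stay above it. No allele, treatment or tumour line is named in the labels. They also leave unsaid whether each library is a different mouse, and the p-values therefore describe variation among these libraries, which may be technical. HDN and LDN differed from Naive in tissue and in tumour together, and only their columns of the count table carried a date-like tag, so that tumour, tissue and batch cannot be told apart in the comparisons with Naive.

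Interleukin-1 alpha and beta drive fever, neutrophil recruitment and NF-kappaB signalling through the receptor encoded by Il1r1, which needs the co-receptor encoded by Il1rap. The antagonist encoded by Il1rn occupies that receptor without signalling, and the decoy encoded by Il1r2 binds the ligands, and recruits the co-receptor, without a signalling domain. Interleukin-1 beta is made as an inactive precursor. Caspase-1, activated on the NLRP3 inflammasome, cleaves it, and caspase-4 (mouse caspase-11) senses cytosolic lipopolysaccharide. Mouse neutrophils are a known source of interleukin-1 beta.

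Promoter sequences of 4 of these genes are shown because they form the closest pairs of expression pattern described below, Il1b with Nlrp3 and Il1rap with Casp4. They are the 250 bases before the most upstream listed start site, from RefSeq on build GRCm38.p6, read 5′ to 3′ on the gene's strand. The authors' own build is not given in the sources used here. Capitals mark letters that matched a searched motif. For Il1b the window is chr2:129371140-129371389 (minus strand), for Nlrp3 chr11:59541319-59541568 (plus), for Il1rap chr16:26581455-26581704 (plus) and for Casp4 chr9:5308599-5308848 (plus).
Il1b: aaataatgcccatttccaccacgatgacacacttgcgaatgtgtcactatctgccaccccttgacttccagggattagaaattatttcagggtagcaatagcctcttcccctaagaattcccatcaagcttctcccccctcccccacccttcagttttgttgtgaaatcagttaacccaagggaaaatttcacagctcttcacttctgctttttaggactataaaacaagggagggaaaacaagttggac
Nlrp3: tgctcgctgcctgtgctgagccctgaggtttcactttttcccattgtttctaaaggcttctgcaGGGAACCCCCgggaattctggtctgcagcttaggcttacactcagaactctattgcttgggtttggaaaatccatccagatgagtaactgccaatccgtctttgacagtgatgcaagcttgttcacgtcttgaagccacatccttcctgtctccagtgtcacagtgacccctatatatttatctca
Il1rap: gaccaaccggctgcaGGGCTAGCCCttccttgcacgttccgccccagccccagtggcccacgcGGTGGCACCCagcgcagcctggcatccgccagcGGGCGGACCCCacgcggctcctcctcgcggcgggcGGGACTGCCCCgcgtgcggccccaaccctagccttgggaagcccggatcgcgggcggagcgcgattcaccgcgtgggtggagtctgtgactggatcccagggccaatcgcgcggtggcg
Casp4: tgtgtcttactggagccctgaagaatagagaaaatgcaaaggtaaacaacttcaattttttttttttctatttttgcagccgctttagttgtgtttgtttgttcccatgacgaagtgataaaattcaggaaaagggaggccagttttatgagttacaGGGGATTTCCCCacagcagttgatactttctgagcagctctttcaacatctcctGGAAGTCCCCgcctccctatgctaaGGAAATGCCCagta
The 5 motifs searched on both strands were GGG, any 5 bases and CC for NF-kappaB, TTNCGNAA for C/EBP, GAGGAAG for PU.1, TGANTCA for AP-1 and TTCNNNGAA for STAT factors. The NF-kappaB pattern stood in the windows of 5 of the 9 genes (Il1rn, Il1rap, Nlrp3, Casp1 and Casp4) and in 45.4% of all 27025 promoter windows of that length. Casp4 held it 3 times in overlap around GGGGATTTCC, with the last match starting 91 bases before the start site, and again at 39 and 14 bases. Il1rap held it 6 times, at 235 and 187 bases and as overlapping pairs whose first matches start at 154 and 119 bases, in a window of 74.4% G or C (median of all windows 52%). Nlrp3 held it a single time, at 186 bases. The Il1b window held none of the 5 patterns. AP-1 matches lay before Il1a and Il1rn (6.85% of all windows), a PU.1 match before Il1a (10.4%) and a STAT match before Il1r2 (7.14%), and no window of the 9 held the C/EBP pattern (2.05%). These are matches of letters only.

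Total counts per library ranged from 18113922 to 30044508, and 3 reads, the floor of detection used here, were worth 0.0954 to 0.153 CPM. CPM are read counts scaled to a common library size with TMM factors, which set the scale from the bulk of the genes. Of 8 neutrophil markers 7 had a row (Ly6g was not analysed here), and their summed level was 75841 to 124301 CPM in HDN, 135053 to 168715 in Naive and 159835 to 206205 in LDN. S100a8 and S100a9 held most of the sum in each group, at 35725 and 44708 CPM in HDN and 74348 and 80293 in LDN. The other markers did not follow the sum alike. Csf3r (8660 CPM in HDN, 3632 in Naive, 3962 in LDN) and Cxcr2 (2952, 1064 and 2374) were on average highest in HDN. Mmp9 was lowest there, and Retnlg and Mmp8 did not pass in LDN against HDN. Neutrophil precursor markers (granule genes and Mki67) summed to 58470 to 63241 CPM in Naive, 1126 to 3197 in HDN and 27904 to 40901 in LDN. Monocyte and macrophage markers, a cell type that also expresses Il1b, summed to 620.1 to 829 CPM in Naive, 280.4 to 556 in HDN and 323 to 433 in LDN. In LDN against HDN 7 of their 9 tested members were higher and 1, Csf1r, was lower, beside 26% and 20.3% of all tested genes. Csf1r held most of that sum in HDN, at 367 ± 113 CPM, and stood at 122 ± 17.3 in LDN, and C1qa and C1qb had no reads in HDN. Of the higher markers, Fn1 made the largest part of the LDN sum, at 176 ± 47.0 CPM beside 12.6 ± 2.09 in HDN. Ly6c2 stood at 64.0 ± 15.8 CPM in LDN and 13.8 ± 8.51 in HDN. The summed B cell, T cell, NK cell and platelet markers were on average lowest in HDN. In Naive and LDN, Cd3d held most of the T cell sum (214 and 34.7 CPM) and Itgb3 most of the platelet sum (113 and 26.5 CPM). In HDN these genes stood at 8.11 and 3.54 CPM. Of the other platelet genes only Itga2b was on average highest in HDN (6.84 ± 0.910 CPM, 2.59 in Naive, 2.31 in LDN), and the rest were lowest there. Of the other T cell genes, Cd3e was lowest in Naive, Cd3g was lowest in HDN, and Cd2 and Lck passed in no comparison. The summed markers of dendritic cells were on average highest in HDN (2.04 to 3.47 CPM, at most 0.960 elsewhere). So were those of eosinophils (40.5 to 86.1 CPM in HDN, 13.7 to 63.7 elsewhere). Each of these 2 sums was carried there by a single gene, Itgae at 2.35 ± 0.599 and Siglecf at 63.1 ± 21.9 CPM. The defining eosinophil granule gene Epx had no reads in HDN, Prg2 stood at 0.170 CPM there and 26.1 in Naive, and the dendritic cell genes Flt3 and Clec9a were on average lowest in HDN and Siglech had no reads there. The part of cell composition in the results was not tested, and in bulk RNA fewer cells of a type and less RNA per cell cannot be told apart.

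Per kilobase of annotated exon, the order of the genes differed between groups. The read ratios and sums of markers given elsewhere are not corrected for gene length. In Naive, Il1b led with 520 ± 121 CPM per kb (mean ± SD, n = 4), followed by Il1rn with 127 ± 16.2, Il1r2 with 74.0 ± 8.91, Nlrp3 with 52.7 ± 8.75, Casp1 with 9.63 ± 1.25, Casp4 with 4.04 ± 0.967 and Il1rap with 2.36 ± 0.703. No neighbours in that order overlapped between libraries. In HDN the decoy receptor Il1r2 led with 1144 ± 551 CPM per kb and Il1b followed with 708 ± 276, but their libraries overlapped. The other 5 genes lay between 22.0 (Il1rap) and 43.7 (Il1rn) CPM per kb, each overlapping its neighbour in the order. In LDN Il1r2 stood at 923 ± 388 CPM per kb, above every library of Il1b at 129 ± 59.1. Casp4 (34.3), Casp1 (29.1), Il1rn (27.2), Il1rap (16.9) and Nlrp3 (13.6) followed, each overlapping its neighbour. Il1r1 was at or below 0.0779 CPM per kb in each group. Exon lengths came from GENCODE M21, which may not be the annotation used for counting.

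**Figure D1:**
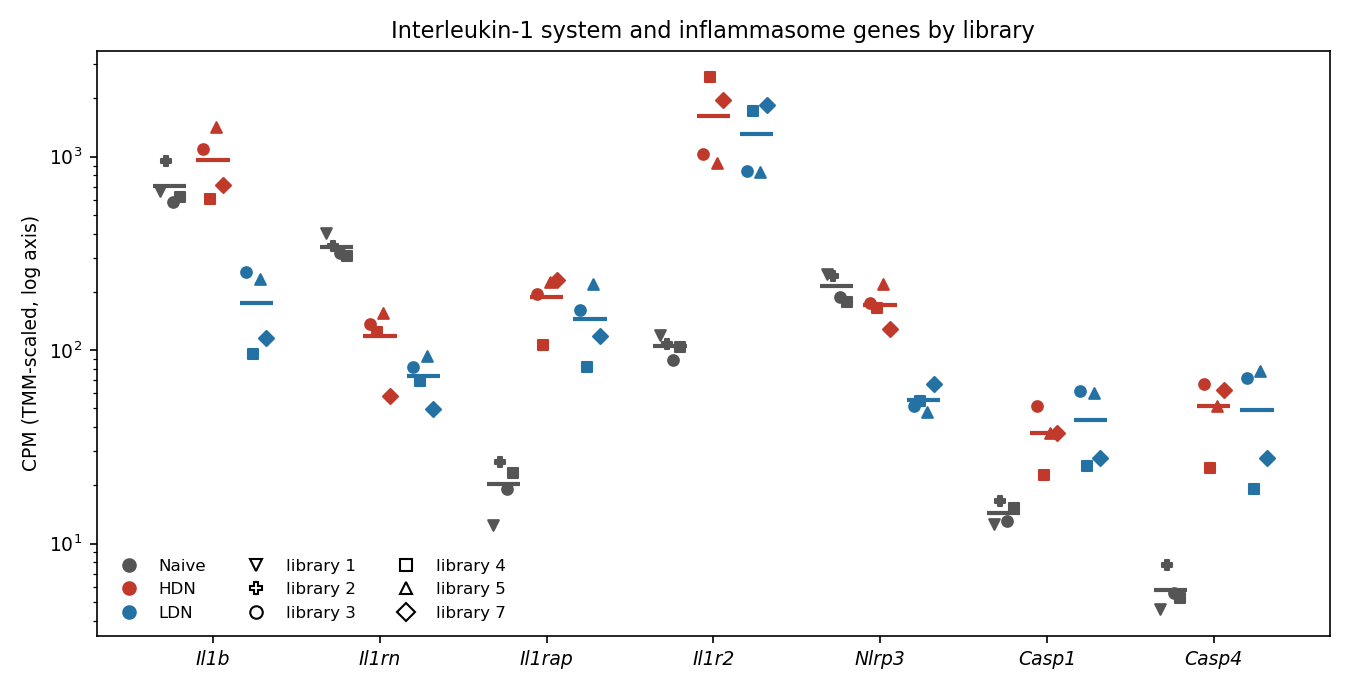
CPM of the 7 tested genes in each library on a log axis, with colours for the groups, marker shapes for the replicate numbers and horizontal bars for group means. Il1b and Nlrp3 sat lower in all 4 LDN libraries than in any other, Il1rn was highest in all 4 Naive libraries, and Il1r2, Il1rap, Casp1 and Casp4 were lowest in the 4 Naive libraries.

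Of the agonists, Il1a was all but absent, and Il1b was abundant in Naive and HDN and lower in LDN. Il1a, which encodes interleukin-1 alpha, had 2 reads in all, 1 in Naive 3 and 1 in LDN 5, below the floor in every library. Il1b stood at 668, 945, 584 and 622 CPM in Naive 1 to 4. In HDN 3, 4, 5 and 7 it stood at 1099.8, 604, 1423 and 714 CPM. In LDN 3, 4, 5 and 7 it stood at 254, 95.7, 232 and 116 CPM. Every LDN library lay below every HDN and Naive library, whereas HDN and Naive overlapped. Il1b was 5.50-fold lower in LDN than in HDN (log2 fold change -2.46 ± 0.35 SE, edgeR quasi-likelihood test, Benjamini-Hochberg adjusted p = 8.74e-05) and 4.04-fold lower than in Naive (-2.01 ± 0.34, adjusted p = 0.000221). The difference between HDN and Naive, 0.45 ± 0.33, did not pass (adjusted p = 0.258). Of the monocyte markers, Csf1r was also lower in LDN than in HDN (-1.60), whereas 7 of the 9 were higher, beside 26% of all genes. The part of such cells in the Il1b result was not tested. An antisense gene, Il1bos, overlaps Il1b, and its reads were 0 to 0.375% of those of Il1b in each library. The strand setting of the counting is not given, and without strand the reads of these overlapping genes cannot be told apart.

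The natural inhibitors of the pathway moved apart, with the antagonist Il1rn lower and the decoy receptor Il1r2 higher in both blood fractions than in marrow. Il1rn stood at 404, 345, 318 and 305 CPM in Naive 1 to 4. It stood at 136, 123, 156 and 58.2 CPM in HDN 3, 4, 5 and 7. LDN 3, 4, 5 and 7 had 82.0, 69.3, 93.7 and 49.3 CPM. All 8 blood libraries were below all 4 Naive libraries, and HDN 7, the lowest of its group, lay within the LDN range. Il1rn was 2.90-fold lower in HDN than in Naive (-1.54 ± 0.26, adjusted p = 0.000185) and 4.66-fold lower in LDN than in Naive (-2.22 ± 0.27, adjusted p = 1.22e-05). It was also 1.61-fold lower in LDN than in HDN (-0.69 ± 0.26, adjusted p = 0.0436, lower in 4 of 4 pairs of the same number). That call ended without HDN 3, HDN 4, HDN 5, LDN 4, LDN 7, Naive 2, Naive 3 or Naive 4 (adjusted p between 0.0558 and 0.131), with limma-voom (0.0747) and with the 8 libraries of the compared groups alone (0.0688).

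Il1r2 showed the largest rise of the 7 tested genes over Naive in both fractions. It stood at 119.9, 108, 89.2 and 103 CPM in Naive 1 to 4. HDN 3, 4, 5 and 7 had 1038, 2571, 931 and 1955 CPM. LDN 3, 4, 5 and 7 had 844, 1717, 828 and 1851 CPM. The lowest blood library was thus far above the highest Naive library, while HDN and LDN overlapped widely. The rise was 15.5-fold in HDN (3.95 ± 0.37, adjusted p = 7.72e-07) and 12.5-fold in LDN (3.64 ± 0.37, adjusted p = 2.51e-06). LDN against HDN gave -0.31 ± 0.33 (adjusted p = 0.468). With the replicate number as a block it passed, at -0.33 with an adjusted p of 0.0388.

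The receptor chains differed from each other. Il1r1, the chain that carries the signal, was near the floor throughout, with 9, 8, 10 and 15 reads in Naive 1 to 4, 1, 1, 4 and 3 reads in HDN 3, 4, 5 and 7, and 4, 4, 7 and 15 reads in LDN 3, 4, 5 and 7. HDN had the fewest reads, 9 in all against 42 in Naive and 30 in LDN. In the fit without a filter on low counts it was lower in HDN than in Naive (-2.36 ± 0.60, adjusted p = 0.00371) and higher in LDN than in HDN (1.91 ± 0.62, adjusted p = 0.0264), but 2 HDN libraries held 1 read each. The authors' deposited DESeq2 tables give Il1r1 at -2.16 (adjusted p = 0.0023) and 1.73 (adjusted p = 0.0239) in these 2 comparisons. Il1rap, the co-receptor shared with other family receptors, was well expressed in blood. It stood at 12.5, 26.6, 19.1 and 23.1 CPM in Naive 1 to 4. HDN 3, 4, 5 and 7 had 195, 106, 226 and 229 CPM, and LDN 3, 4, 5 and 7 had 162, 82.1, 219 and 118 CPM. No blood library overlapped Naive. The rise was 9.31-fold in HDN (3.22 ± 0.34, adjusted p = 2.24e-06) and 7.15-fold in LDN (2.84 ± 0.33, adjusted p = 9.84e-06). HDN and LDN overlapped (-0.38 ± 0.31, adjusted p = 0.336, and adjusted p = 0.0398 with the replicate block).

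Among the inflammasome genes, the sensor Nlrp3 was lower in LDN, and the caspases were higher in both blood fractions. Nlrp3 stood at 247, 241, 189 and 178 CPM in Naive 1 to 4. HDN 3, 4, 5 and 7 had 175, 165, 218 and 129 CPM, and LDN 3, 4, 5 and 7 had 51.2, 54.8, 47.8 and 67.2 CPM. The LDN libraries formed a narrow band below all others, and HDN overlapped Naive. Nlrp3 was 3.11-fold lower in LDN than in HDN (-1.64 ± 0.17, adjusted p = 9.72e-06) and 3.87-fold lower than in Naive (-1.95 ± 0.18, adjusted p = 9e-07). HDN against Naive gave -0.31 ± 0.17 (adjusted p = 0.126). It passed without HDN 5 (-0.44, adjusted p = 0.0379) and when the 20 most abundant genes were left out of the library sizes (-0.47, adjusted p = 0.0112).

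Casp1, which encodes the protease that matures interleukin-1 beta, stood at 12.7 to 16.6 CPM in Naive. It stood at 51.4, 22.5, 37.4 and 37.4 CPM in HDN 3, 4, 5 and 7 and at 61.8, 25.2, 59.9 and 27.6 CPM in LDN 3, 4, 5 and 7. Each blood library exceeded each Naive library. The rise was 2.58-fold in HDN (1.36 ± 0.31, adjusted p = 0.00172) and 3.02-fold in LDN (1.60 ± 0.31, adjusted p = 0.000669). Casp4 rose further, from 4.59 to 7.79 CPM in Naive. HDN 3, 4, 5 and 7 had 67.1, 24.7, 51.7 and 62.3 CPM, and LDN 3, 4, 5 and 7 had 72.0, 19.2, 78.0 and 27.6 CPM. Its rise was 8.85-fold in HDN (3.15 ± 0.45, adjusted p = 3.79e-05) and 8.47-fold in LDN (3.08 ± 0.45, adjusted p = 6.12e-05). Between the fractions neither caspase passed, with Casp1 at 0.23 ± 0.30 (adjusted p = 0.554) and Casp4 at -0.06 ± 0.41 (adjusted p = 0.911). The SE leaves room for a difference of either sign.

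**Figure D2:**
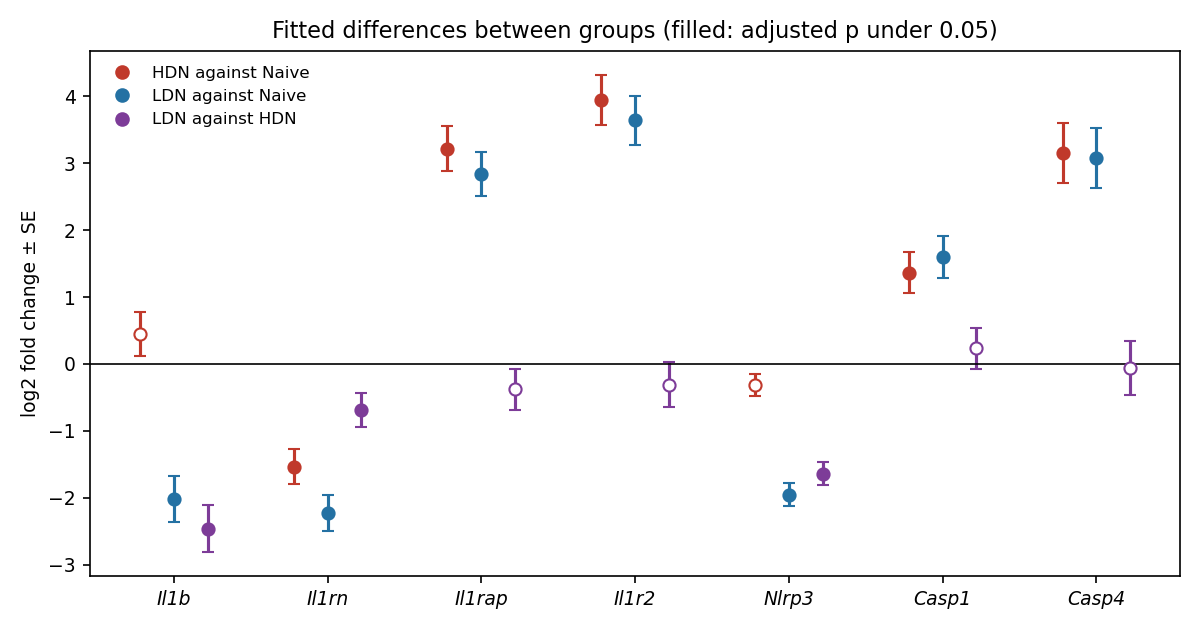
Log2 fold change of the 7 tested genes in the 3 comparisons, with bars for the SE and filled points where the adjusted p was under 0.05. Il1r2, Il1rap, Casp1 and Casp4 lay above 0 and Il1rn below 0 in both comparisons with Naive, and Il1b and Nlrp3 lay below 0 in LDN against HDN and against Naive.

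Counted together, 0 of the 7 tested genes were higher and 3 lower in LDN against HDN, where 26% and 20.3% of the 10604 tested genes were higher and lower (46.3% in all). LDN and HDN values were fully separate for 2 of the 7, Il1b and Nlrp3, and for 39.2% of all genes. With the replicate block, calls over all genes went from 2761 higher and 2153 lower to 2861 and 2848. Among the 7, 0 were then higher and 5 lower, since Il1r2 and Il1rap joined Il1b, Il1rn and Nlrp3. In HDN against Naive 4 were higher and 1 lower, beside 30% and 29.9% of all genes (59.8% called in all), and the values of those 5 were fully separate, beside 53.3% of all genes. In LDN against Naive 4 were higher and 3 lower, beside 27.4% and 26.8% (54.2% in all), and the values of all 7 were fully separate, beside 55.3% of all genes. The median log2 fold change of the 7 was -0.38 in LDN against HDN, 1.36 in HDN against Naive and 1.60 in LDN against Naive, and over all tested genes it was 0.02, 0.04 and 0.01. The comparisons share groups and are not independent of each other. The authors' deposited table of LDN over HDN gives log2 fold changes of -2.44 for Il1b, -1.67 for Nlrp3 and -0.72 for Il1rn, with adjusted p of 2.26e-12, 2.71e-17 and 0.0211. In the authors' deposited tables against Naive, Il1r2 is at 3.85 in HDN and 3.51 in LDN.

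The balance of agonist to antagonist was followed as the ratio of Il1b to Il1rn reads within each library, from which library scaling cancels. There were 1.65, 2.74, 1.84 and 2.04 Il1b reads per Il1rn read in Naive 1 to 4. The ratio was 8.10, 4.89, 9.14 and 12.3 in HDN 3, 4, 5 and 7, and 3.10, 1.38, 2.48 and 2.35 in LDN 3, 4, 5 and 7. All HDN libraries stood above all others, and LDN overlapped Naive. On the log2 scale the mean was 3.03 ± 0.55 in HDN, 1.159 ± 0.49 in LDN and 1.02 ± 0.31 in Naive (SD, n = 4). HDN exceeded Naive by 2.01 (two-sided exact permutation p = 0.0286, which is as small as groups of 4 can give, and 0.0429 with Benjamini-Hochberg adjustment for 6 ratio tests). LDN lay below HDN by 1.87 (log2 difference -1.87, exact permutation p = 0.0286, adjusted p = 0.0429). It was lower in all 4 pairs of the same number (exact sign-flip p = 0.125, as small as 4 pairs can give). Leaving out LDN 4, the difference was -1.64 with an exact permutation p of 0.0571. LDN and Naive differed by 0.14 (exact permutation p = 0.657). In HDN the higher ratio went with a lower Il1rn, and Il1b itself did not pass against Naive.

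Against the decoy receptor the balance ran differently. There were 5.57, 8.77, 6.54 and 6.03 Il1b reads per Il1r2 read in Naive 1 to 4. HDN 3, 4, 5 and 7 had 1.06, 0.235, 1.53 and 0.365, and LDN 3, 4, 5 and 7 had 0.301, 0.0557, 0.280 and 0.0626. Naive was above every blood library, and the fractions overlapped because HDN 4 fell below LDN 3 and LDN 5. The log2 ratio was lower than in Naive in HDN (difference -3.44, exact permutation p = 0.0286, adjusted p = 0.0429) and in LDN (-5.66, exact permutation p = 0.0286, adjusted p = 0.0429). LDN against HDN gave -2.22 (exact permutation p = 0.0857, adjusted p = 0.103). Within numbers 3, 4, 5 and 7 the difference was -1.82, -2.07, -2.45 and -2.55, lower in LDN in all 4 pairs (exact sign-flip p = 0.125, as small as 4 pairs can give). So relative to Naive marrow the Il1b reads of HDN were more frequent against Il1rn and less frequent against Il1r2.

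**Figure D3:**
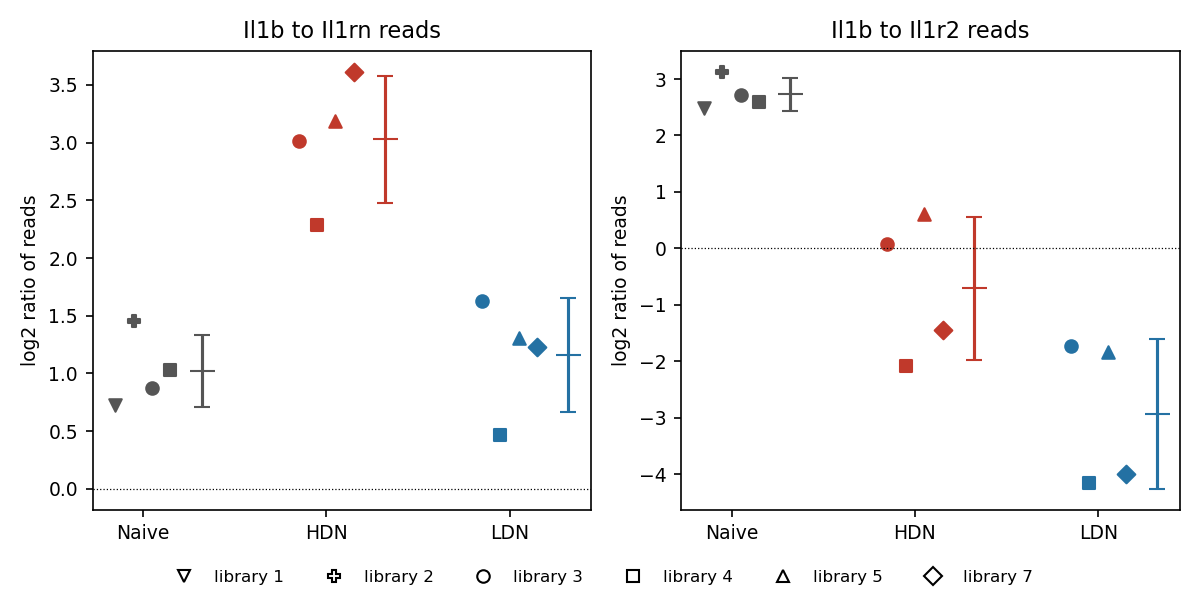
Log2 ratio of Il1b reads to Il1rn reads (left) and to Il1r2 reads (right) in each library, with mean and SD beside the points and marker shapes for the replicate numbers. HDN stands above Naive and LDN on the left, and Naive stands above both blood groups on the right.

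HDN and LDN carry the same 4 replicate numbers, and within each number the members could be set side by side. The log2 ratio of LDN to HDN for Il1b was -2.11, -2.66, -2.62 and -2.62 in numbers 3, 4, 5 and 7, and for Nlrp3 it was -1.77, -1.59, -2.19 and -0.94. Il1rn (-0.83 to -0.24), Il1r2 (-0.58 to -0.08) and Il1rap (-0.96 to -0.05) were also lower in LDN in all 4 pairs. Casp1 was higher in 3 pairs and lower in number 7 (-0.44), and Casp4 was higher in numbers 3 and 5 and lower in 4 and 7, from -1.17 to 0.59. The spread between numbers was shared by the fractions for some genes and not for others. Il1r2 was higher in numbers 4 and 7 than in 3 and 5 in both HDN and LDN. Il1b went the other way, with numbers 3 and 5 above 4 and 7 in both fractions. For Casp4, number 4 was the lowest library of each fraction. For Nlrp3, number 5 was the highest HDN library and the lowest LDN library, and number 7 the reverse. On the log2 scale, number 7 lay above the HDN mean and below the LDN mean for Casp4, Il1rap and Casp1. What a number stands for is not given in the labels.

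**Figure D4:**
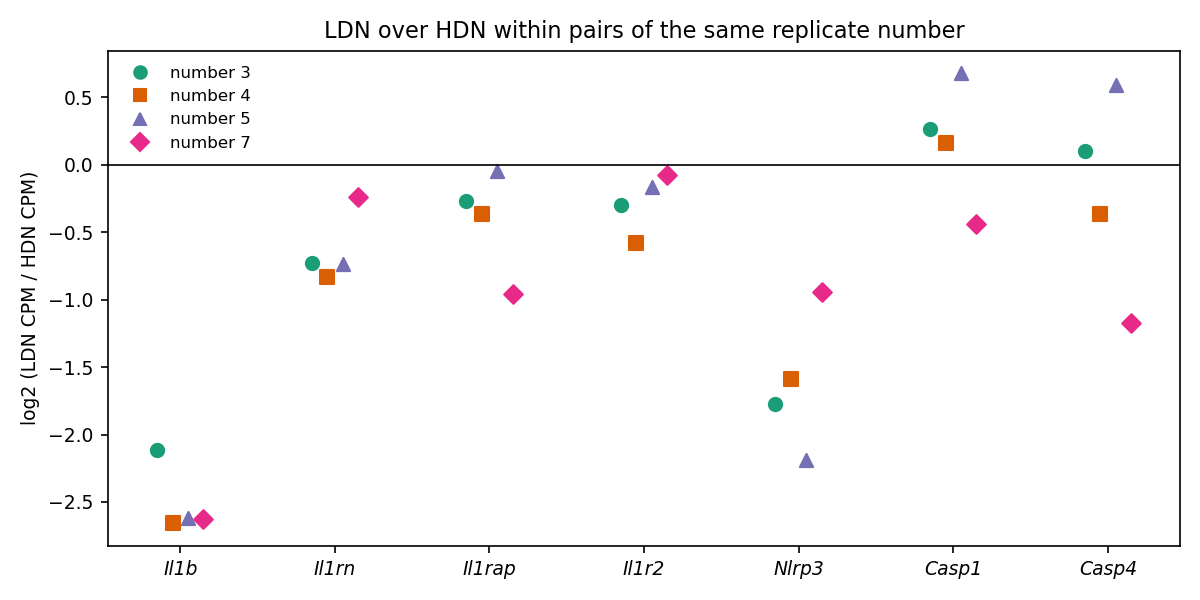
Log2 ratio of LDN CPM to HDN CPM within each of the 4 replicate numbers for the 7 tested genes. All 4 pairs lie below 0 for Il1b, Il1rn, Il1rap, Il1r2 and Nlrp3, and the pairs of Casp1 and Casp4 lie on both sides of 0.

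Likeness of pattern was measured as the root mean square difference of log2 CPM over the 12 libraries after centring each gene on its mean, as a description with no test. Among the 7 genes the closest pair was Il1rap and Casp4 (0.31), followed by Il1b and Nlrp3 (0.62) and, little farther, Il1rn and Nlrp3 (0.66). The farthest pair was Il1rn and Il1r2 (2.76). Of 8519 other genes, Tbx6 (0.395), Clec7a (0.419), 1700071M16Rik (0.429), Alcam (0.447) and Ccl4 (0.459) were closest to Il1b. Clec7a encodes the beta-glucan receptor dectin-1, Alcam an adhesion molecule and Ccl4 a chemokine. The genes closest to Il1rn were Cerk (0.222), Eef2k (0.258), Zhx2 (0.263), AW011738 (0.283) and Slc25a33 (0.295). Those closest to Il1r2 were Dus2 (0.379), Cdc42bpb (0.406), F10 (0.435), Fggy (0.438) and Gpr55 (0.465), of which F10 encodes coagulation factor X.

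Other ligands and receptors of the interleukin-1 family had 15 listed genes, of which 9 were tested. In LDN against HDN 2 were higher and 0 lower, beside 26% and 20.3% of all tested genes. Sigirr, an inhibitory receptor of the family, stood at 1.15 ± 0.501 CPM in HDN, 2.78 ± 0.338 in Naive and 6.01 ± 1.38 in LDN, with no overlap between any groups. It was 5.16-fold higher in LDN than in HDN (2.37 ± 0.28, adjusted p = 2.23e-05). It was also lower in HDN than in Naive (-1.26, adjusted p = 0.0016) and higher in LDN than in Naive (1.11, adjusted p = 0.0029). Il1rl2, the interleukin-36 receptor, was at 1.84 ± 0.456 CPM in HDN and 2.81 ± 0.363 in LDN (0.61, adjusted p = 0.0475), a call that ended under 16 of 19 alternatives, among them leaving out any 1 library other than Naive 3 and HDN 7 (adjusted p between 0.0578 and 0.182). Il1f9, which encodes the agonist interleukin-36 gamma, was abundant, at 474 ± 47.1, 439 ± 124 and 427 ± 55.3 CPM in Naive, HDN and LDN, and passed in no comparison. When the 20 most abundant genes were left out of the library sizes it passed in LDN against Naive (-0.44, adjusted p = 0.0162). In HDN against Naive 2 were higher and 2 lower, beside 30% and 29.9% of all genes, among them Il18bp, the soluble inhibitor of interleukin-18, at 35.3 ± 4.16 CPM in Naive and 96.1 ± 64.0 in HDN (1.44, adjusted p = 0.00517). Its difference between LDN and HDN (-0.78, adjusted p = 0.104) passed with the replicate block (-0.68, adjusted p = 0.0146) and without HDN 5 (adjusted p = 0.0285) or LDN 4 (adjusted p = 0.0354). Il18 itself was at 1.88 to 2.74 CPM in group means and passed in no comparison. Il1rl1, the interleukin-33 receptor, was near 1 CPM (-1.15 in HDN against Naive, adjusted p = 0.0425), and that call ended without Naive 2, 3 or 4 or without HDN 3, 4 or 7 (adjusted p between 0.061 and 0.123). In LDN against Naive 3 were higher and 0 lower, beside 27.4% and 26.8%, with Il1rl2 at 1.15 (adjusted p = 0.00129).

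The list of other inflammasome and pyroptosis genes had 30 members, of which 26 were tested. In LDN against HDN 8 were higher and 9 lower, beside 26% and 20.3% of all tested genes, with a median of -0.04 beside 0.02 over all genes. The adaptor Pycard, which links sensors to caspase-1, stood at 58.4 ± 19.7 CPM in LDN, 22.0 ± 11.7 in HDN and 10.1 ± 0.488 in Naive, and all LDN libraries were above all HDN libraries (1.41 ± 0.32, adjusted p = 0.00306). The necroptosis kinase gene Ripk3 went the same way (1.46, adjusted p = 0.000106). The sensor gene Nlrc4 was 7.27-fold higher in LDN (2.86, adjusted p = 0.000846) at a level near the floor, 0.887 ± 0.278 against 0.127 ± 0.126 CPM, and gave 3.54 without HDN 3. Higher sensor genes also included Nlrp10, Naip2, Naip5 and Naip6, and lower ones Nlrp12, Nlrp1b, Mefv and Aim2, of which Nlrp10, Nlrp12, Nlrp1b and the Naip genes are named here after their values were seen. Mefv, which encodes pyrin, stood at 50.1 ± 13.1 CPM in LDN and 115 ± 37.2 in HDN (-1.20, adjusted p = 0.00113), and the DNA sensor Aim2 at 2.76 ± 0.713 and 7.83 ± 4.48 (-1.499, adjusted p = 0.00469). Gbp5 (-2.89, adjusted p = 0.00155, and -3.48 without LDN 3) and Gbp2 (-1.65, adjusted p = 0.00589), interferon-inducible GTPases, and Ninj1 (-1.84, adjusted p = 8.68e-05), which acts in rupture of the plasma membrane, were lower as well. Gsdmd, the pore former of pyroptosis, was at 199 ± 18.2 CPM in LDN and 214 ± 32.9 in HDN (-0.10, adjusted p = 0.548). Against Naive it was higher in HDN (0.35, adjusted p = 0.0338), a call that ended without Naive 2, Naive 3, Naive 4, HDN 3 or HDN 4 (adjusted p between 0.0784 and 0.105), with the compared groups alone (0.0545) and with library sizes without the 20 most abundant genes (0.20, adjusted p = 0.124). Members of the Naip and Nlrp1 families are near-identical copies whose counts are uncertain.

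**Figure D5:**
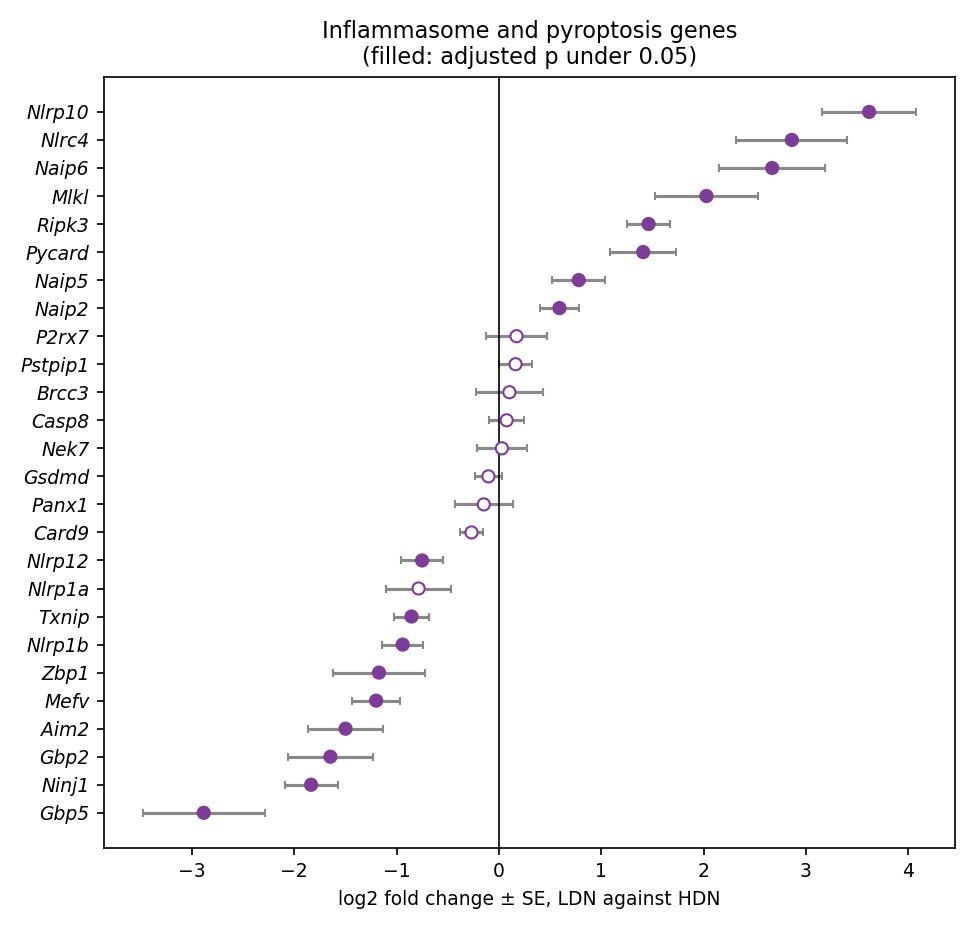
Log2 fold change in LDN against HDN of the 26 tested genes of the inflammasome and pyroptosis list, with bars for the SE and filled points where the adjusted p was under 0.05. Filled points lie on both sides of 0, 8 above and 9 below, with Gsdmd, Nek7 and Casp8 near 0.

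Against Naive, 16 of the 26 were higher and 3 lower in HDN, beside 30% and 29.9% of all tested genes, and 11 were higher and 2 lower in LDN, beside 27.4% and 26.8%. Gbp5 rose from 0.630 ± 0.255 CPM in Naive to 20.6 ± 12.6 in HDN (4.99, adjusted p = 2.75e-05), Gbp2 from 24.3 ± 4.87 to 458 ± 237 (4.23, adjusted p = 3.48e-06) and the nucleic acid sensor gene Zbp1 from 11.9 ± 1.91 to 169 ± 121 (3.82, adjusted p = 1.79e-05). Mefv rose by 1.97 in HDN (adjusted p = 9.51e-06). In LDN, Zbp1 was higher by 2.65 (adjusted p = 0.000391), Gbp2 by 2.59 (adjusted p = 0.000216), Pycard by 2.53 (adjusted p = 2.88e-05) and Ripk3 by 2.38 (adjusted p = 1.09e-06), and Ninj1 was lower, at -2.17 (adjusted p = 1.17e-05).

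Genes that carry the signal from the receptor to NF-kappaB or restrain it, counted together, numbered 25, of which 23 were tested. In LDN against HDN 2 were higher and 5 lower, beside 26% and 20.3% of all tested genes. Tnfaip3, which encodes the NF-kappaB inhibitor A20, had its lowest level in LDN, 5.59 ± 1.82 CPM, with 17.9 ± 5.88 in HDN and 28.8 ± 3.63 in Naive (LDN against HDN -1.68 ± 0.27, adjusted p = 0.000232). Map3k8, the kinase Tpl2, was at 29.3 ± 3.20 CPM in LDN, 52.3 ± 8.63 in HDN and 11.1 ± 1.04 in Naive (LDN against HDN -0.84, adjusted p = 0.000311), and the ligase gene Peli1 was also lower in LDN (-0.81, adjusted p = 0.00306). Nfkbiz, a nuclear inhibitor-related cofactor, gave -0.65 (adjusted p = 0.0394), a call that ended without HDN 3, HDN 5, HDN 7, LDN 4 or LDN 5 (adjusted p between 0.054 and 0.12), with limma-voom (0.0586) and with the compared groups alone (0.0566). The adaptor Myd88 was at 588 ± 49.9 CPM in LDN and 539 ± 150 in HDN (0.13, adjusted p = 0.628). Against Naive, 10 were higher and 3 lower in HDN (30% and 29.9% of all genes), and 14 were higher and 4 lower in LDN (27.4% and 26.8%). Myd88 rose by 1.17 in HDN (adjusted p = 0.000176) and 1.30 in LDN (adjusted p = 1e-04), and Nfkbia, which encodes the inhibitor I-kappaB alpha, by 1.44 (adjusted p = 2.13e-06) and 1.24 (adjusted p = 1.24e-05). Map3k8 (2.23, adjusted p = 2.08e-08) and the adaptor Tab2 (1.05, adjusted p = 8.81e-05) rose in HDN, and in LDN Map3k8 rose by 1.39 (adjusted p = 2.67e-06) and Tnfaip3 was lower (-2.36, adjusted p = 7.85e-06). Irak3, an inhibitory member of the receptor-associated kinases, was lower in both, at -0.53 (adjusted p = 0.0029) and -0.63 (adjusted p = 0.00101).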

How the data were processed

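The authors' count table held raw counts of reads per gene symbol, not normalized, in columns named like STAR per-gene files, per the file headers. Per the submitters' processing notes, CASAVA 1.8.2, Trimmomatic, STAR and DESeq2 1.16.1 were used. A stranded poly(A) kit was used, per the labels' protocols. For build, annotation and strand setting the sources used here give nothing. The authors also deposited DESeq2 tables, of which the log2 fold changes and adjusted p-values were used.

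Every column was matched to a sample by name, with 0 left over. Counts were tested with edgeR 4.0.16 in R 4.3.3: filtering by group, TMM scaling, a robust quasi-likelihood fit of the 12 libraries on group alone, and Benjamini-Hochberg adjustment over 10604 genes at 0.05. The fit was tested on simulated data: in LDN against HDN it recovered fewer of the smaller changes than first required, and that requirement was then lowered. Ratios of reads had 0.5 reads added and were compared by exact permutation over 70 arrangements. The floor of 3 reads covers counting error only.

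The members and gene lists were chosen with earlier results of these data known. Named genes were the members, up to 4 passing genes per list and comparison with the largest fold change whose mean log2 CPM reached 1, and a set listed by name. Alternatives were RLE scaling, library sizes without the 20 most abundant genes, no filter, DESeq2 1.42.0, limma-voom 3.58.1, the compared groups alone, leaving out each library, and a replicate block.

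The numbers 3, 4, 5 and 7 are shared by HDN and LDN in the labels. Deviations from group means correlated at 0.31 to 0.76 over same-numbered pairs and at -0.61 to 0.41 over others. These ranges overlap, and HDN 3 correlated more with LDN 5 (0.412) than with LDN 3 (0.385). The numbers were taken as pairs in the replicate block, the pairwise values and the sign-flip tests, and the main fit did not use them. The Naive numbers did not pair with either (-0.13 to 0.16).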

Additional observations from a re-analysis of the deposited data

How the results depend on the processing

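Under 19 alternatives the calls of Il1b and Nlrp3 in LDN against HDN and of all 7 genes in LDN against Naive kept their direction and passed, as did those of Il1r2, Il1rap, Il1rn, Casp1 and Casp4 in HDN against Naive. The number of members called in LDN against HDN was 3 and rose to 5 with the replicate block, while all genes called rose from 4914 to 5709. When libraries were left out, the members called ranged from 2 to 4 and all genes called from 4425 to 5199. In some of those fits Il1r1, higher in every LDN library than in any HDN library, passed the filter and the test. In HDN against Naive the members called were 5 to 7 over the alternatives, where Il1r1, lower in HDN, or Nlrp3 joined. All genes called there numbered 5654 to 7150. In the comparisons with Naive the block changed no call of a member, but it cannot serve as a check by pairs there. Only Naive 3 and Naive 4 share a number with the fractions, and the Naive numbers did not pair with either. Naive 1 and Naive 2 have numbers of their own and add nothing to the blocked difference. Library sizes without the 20 most abundant genes moved the median of all genes to -0.12 in LDN against HDN, -0.11 in HDN against Naive and -0.28 in LDN against Naive, and turned the balance of calls from 2761 higher and 2153 lower to 2245 and 2776, from 3177 and 3167 to 2488 and 3676, and from 2910 and 2840 to 1852 and 3968. The cause was not tested. Values that changed sign had not passed. Leaving out single libraries in LDN against HDN gave -0.58 to 0.0056 for Il1r2, -0.051 to 0.43 for Casp1, -0.44 to 0.13 for Casp4, -0.056 to 0.24 for Myd88, -0.57 to 0.28 for Il18 (0.15 with limma-voom), -0.19 to 0.094 for Il1f9 and -0.19 to 0.0047 for Irak3. It gave -0.23 to 0.018 for Il1f9 in HDN against Naive, and in LDN against Naive -0.37 to 0.054 for Aim2 and -0.040 to 0.59 for Il18. Ninj1 in HDN against Naive was at 0.063 with the replicate block, and Gsdmd in LDN against Naive at -0.038 without the 20 most abundant genes. The log2 ratio of Il1b to Il1rn ranged over -2.12 to -1.64 in LDN against HDN, with -1.87 over the 4 pairs (replicate block, exact sign-flip p = 0.125), and over -0.019 to 0.37 in LDN against Naive. Depth limits Il1a and Il1r1, whose reads lay near the floor.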

Other observations

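Some genes of the lists lay outside the rule for naming, and were chosen after their values were seen. P2rx7, which encodes the ATP-gated channel that triggers the NLRP3 inflammasome, had 2.25 ± 0.191 CPM in HDN, 2.54 ± 0.686 in LDN and 0.297 ± 0.211 in Naive, and was higher than in Naive in both fractions (2.95 and 3.13, edgeR adjusted p = 1e-05 and 9.27e-06). Mlkl, the effector of necroptosis, was lowest in HDN, at 0.369 ± 0.298 CPM against 2.31 ± 0.668 in Naive and 1.52 ± 0.602 in LDN. Nlrp10 was at or below the floor of 3 reads in 7 of the 8 Naive and HDN libraries and at 1.13 ± 0.161 CPM in LDN (LDN against HDN 3.62, adjusted p = 3.82e-05). Il1f8, which encodes interleukin-36 beta, rose from 0.0694 ± 0.0637 CPM in Naive to 0.653 ± 0.178 in LDN (adjusted p = 0.000384).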
